A study of Xenopus laevis with 6 samples.

Results

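Mix1 and Mixer are paired-class homeodomain transcription factors of the early Xenopus embryo, and the genes studied here are all rows of the deposited count tables whose name begins with mix1, mixer or bix1. The rule takes rows by gene name alone. It found 4 of 45099 gene rows, mix1.L, mix1.S, mixer.L and mixer.S, which are the L and S subgenome copies (homeologs) of mix1 and of mixer. No row carried a bix1 name, so the Bix genes, close relatives in the same family, are not analysed here. All 4 rows passed the filter on low counts.

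The samples were 6 whole gastrulae of the frog Xenopus laevis at stage 11.5, each sequenced alone as polyadenylated RNA. The control group was 3 uninjected embryos, which therefore received no injection of any kind. The dkk group was 3 embryos given 100 pg of dkk mRNA in the animal side of both cells at the 2-cell stage. An effect of dkk and an effect of the injection itself therefore cannot be told apart here. Dkk is a secreted antagonist of canonical Wnt/β-catenin signalling. Every mating gave 1 control and 1 dkk embryo, and the 3 matings are called pairs 1 to 3 here. The labels give no strain and no genotype, and each embryo is both the animal and the library.

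As background, mix1 was first known as a gene switched on directly by activin in Xenopus blastula cells. In vegetal cells the T-box factor VegT and Nodal ligands, which act through Smad2 and the forkhead partner FoxH1, induce mix and bix genes before and at the onset of gastrulation. Mixer promotes endoderm and can activate sox17 genes, while Mix1 can repress brachyury in prospective endoderm. Mix-family transcripts are transient and decline as gastrulation goes on.

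Reads in genes numbered 17460820 to 19880568 per embryo, and levels are given as CPM (read counts relative to library size) scaled by the TMM method, which corrects for differences in library composition. A count of 0 would leave room for 0.136 to 0.175 CPM, far below the members. As a check of the labels, dkk1 and Wnt feedback genes were read in every embryo. The S copy of dkk1 had 11.9, 19.9 and 13.9 CPM in controls 1 to 3 and 511, 473 and 725 CPM in dkk embryos 1 to 3. The Wnt feedback gene axin2.L had 61.2, 93.8 and 53.2 CPM in controls and 1.23, 5.51 and 0.816 CPM in dkk embryos. The Wnt target sp5.L had 66.0, 73.6 and 80.7 CPM in controls and 0.483, 1.17 and 5.39 CPM in dkk embryos. The pair 3 dkk embryo had the most dkk1.S and the least axin2.L of the 6, but sp5.L was least reduced there, with a log2 ratio of -3.88 against -6.81 and -5.85 in pairs 1 and 2. The other copies differed from these: sp5.S had ratios of -6.43, -5.47 and -5.73 in pairs 1 to 3, and axin2.S had -5.90, -3.60 and -3.42. Both had 8 reads or fewer in each dkk embryo. The other dkk1 copy, dkk1.L, was also least reduced in pair 3, at -0.94 against -2.38 and -2.97.

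mix1.L stood at 22.0, 21.5 and 20.9 CPM in controls 1 to 3 (378, 395 and 413 reads) and at 6.59, 7.24 and 25.3 CPM in dkk embryos 1 to 3 (123, 130 and 559 reads). In pairs 1 and 2 the dkk embryo lay far below its sibling, by 3.34-fold and 2.97-fold, while in pair 3 it lay above it by 1.21-fold. The dkk embryos of pairs 1 and 2 were below every control, and that of pair 3 was above every control.

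mix1.S stood at 13.6, 26.8 and 22.1 CPM in controls 1 to 3 (233, 493 and 436 reads), and dkk embryos 1 to 3 stood at 7.72, 11.5 and 37.9 CPM (144, 207 and 837 reads). The direction within pairs was the same as for the L copy, with the pair 1 and 2 dkk embryos 1.76-fold and 2.33-fold lower than their siblings and the pair 3 dkk embryo 1.72-fold higher. Control 1 was the lowest control of this copy, but the pair 1 and 2 dkk embryos were still below it.

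mixer.L had 194, 147 and 150 CPM in controls 1 to 3 (3329, 2704 and 2957 reads) and 58.7, 88.1 and 232 CPM in dkk embryos 1 to 3 (1095, 1581 and 5116 reads). Its dkk embryo was 3.31-fold lower in pair 1, 1.67-fold lower in pair 2 and 1.55-fold higher in pair 3. mixer.S had 60.3, 74.6 and 51.0 CPM in controls (1034, 1371 and 1009 reads) and 23.4, 34.2 and 101 CPM in dkk embryos (436, 614 and 2217 reads). Its dkk embryo was 2.58-fold and 2.18-fold lower in pairs 1 and 2 and 1.97-fold higher in pair 3. In all 4 rows the dkk embryos of pairs 1 and 2 were the 2 lowest and that of pair 3 the highest of the 6 embryos. The pair 3 dkk embryo was the highest of the 6 in 23.7% of all tested genes.

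**Figure D1:**
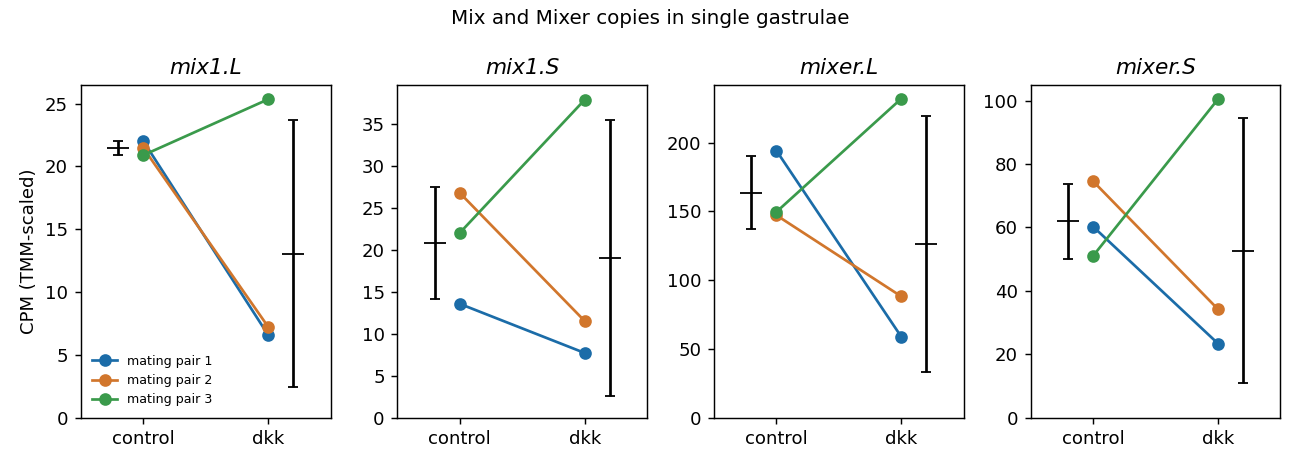
TMM-scaled CPM (vertical axis, from 0) of each Mix and Mixer copy in control and dkk embryos; lines join the siblings of a mating pair, and black bars give the mean ± SD of 3 embryos. The controls lie closest together for mix1.L, at 20.9 to 22.0 CPM, and farther apart for mix1.S, at 13.6 to 26.8 CPM, while the dkk embryos of pairs 1 and 2 lie below them and that of pair 3 above.

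Taken over the 3 pairs, no member passed the test of a dkk effect. mix1.L averaged 21.5 ± 0.575 CPM in controls (SD, n = 3) and 13.1 ± 10.6 CPM in dkk embryos, with a log2 fold change of -1.00 ± 0.44 (SE; 95% interval -2.09 to 0.09; adjusted p = 0.668, edgeR quasi-likelihood test blocked on mating, Benjamini-Hochberg adjustment). mix1.S averaged 20.8 ± 6.71 and 19.1 ± 16.5 CPM (-0.41 ± 0.41; interval -1.43 to 0.61; adjusted p = 0.897, edgeR). mixer.L averaged 164 ± 26.4 and 126 ± 92.7 CPM (-0.61 ± 0.55; interval -2.25 to 1.03; adjusted p = 0.888, edgeR). mixer.S averaged 62.0 ± 11.9 and 52.7 ± 41.8 CPM (-0.52 ± 0.58; interval -2.19 to 1.15; adjusted p = 0.912, edgeR). The intervals hold both a fall of over 2-fold and no change at all, and those of mix1.S, mixer.L and mixer.S reach well above 0.

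With edgeR 0 of 4 members passed an adjusted p of 0.05, and 0 of 4 had an unadjusted p under 0.05, which 7.82% of all tested genes met. DESeq2 called 0 of 4, with mix1.L at an unadjusted p of 0.0047, and limma-voom called 0 of 4, with 0 unadjusted. Over all 21643 genes tested with edgeR, 0.573% passed (0.467% lower, 0.106% higher). Of the same 21643 genes DESeq2 called 392 and limma-voom 145. The share of all genes under an unadjusted p of 0.05 is given for edgeR only. None of the 4 genes is among the 97 genes of the authors' deposited table of their own comparison.

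The result turned on pair 3. Fitted to pairs 1 and 2 alone, mix1.L had a log2 fold change of -1.65 ± 0.19 (SE; adjusted p = 0.00744), mix1.S of -1.01 ± 0.20 (adjusted p = 0.0449) and mixer.S of -1.24 ± 0.14 (adjusted p = 0.00649), all lower and all past the threshold (edgeR with Benjamini-Hochberg adjustment). mixer.L stood at -1.22 ± 0.28 and did not pass (adjusted p = 0.154, edgeR). These 3 of 4 members compare with 1.5% of 21750 genes called lower and 1.53% called higher in the same fit (3.03% in all). The pair left out is the one whose ratios were above 0 in all 4 rows. The rows also moved together across embryos, so their calls are not independent of each other. That fit has 1 residual degree of freedom and borrows its spread from other genes. Without pair 1 the log2 fold changes of mixer.L and mixer.S were nearer 0, at -0.056 and -0.072. Without pair 1 or pair 2 no member was called (edgeR adjusted p of 1.000 and 0.9996 for each).

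**Figure D2:**
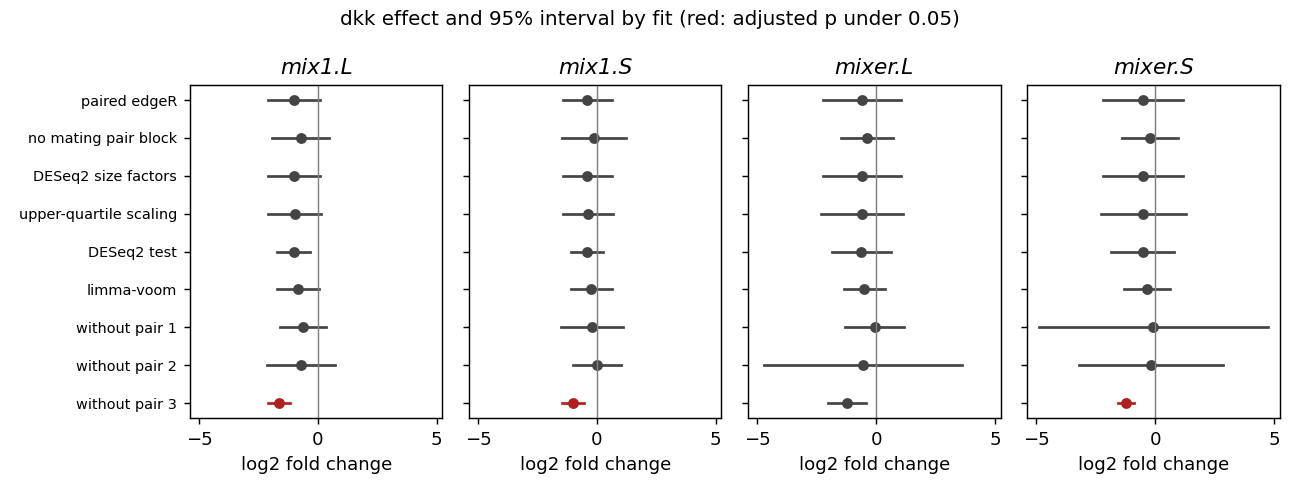
Log2 fold change of dkk over control (horizontal axis) with its 95% interval for each copy under 9 fits; red marks an adjusted p under 0.05. The intervals of the paired edgeR fit include 0 in all 4 copies, and red appears in the fit without pair 3, for mix1.L, mix1.S and mixer.S.

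Within each pair the difference was larger than counting error. The log2 ratio of dkk to control for mix1.L was -1.72 in pair 1 (95% counting interval -2.05 to -1.44), -1.56 in pair 2 (-1.87 to -1.28) and 0.28 in pair 3 (0.093 to 0.47). For mixer.S it was -1.36 (-1.53 to -1.20), -1.12 (-1.26 to -0.99) and 0.98 (0.87 to 1.09). No interval of the 12 ratios included 0. These intervals cover the counting of reads and not the difference between sibling embryos, of which there was 1 per group and mating.

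The sign of the change was not shared by all pairs, and the spread between pairs was wide. A ratio below 0 in pairs 1 and 2 and above 0 in pair 3 was found in 4 of 4 members and in 18.9% of all tested genes. With a step of 0.5 on the log2 scale (below -0.5 in pairs 1 and 2, above 0.5 in pair 3) it was found in mix1.S, mixer.L and mixer.S and in 0.859% of tested genes; mix1.L missed it through its pair 3 ratio of 0.28. Both shares were computed after the members' values had been seen. The SD of the 3 pair ratios was 1.11 for mix1.L, 1.05 for mix1.S, 1.18 for mixer.L and 1.29 for mixer.S, against a median of 0.32 over all tested genes. These values lie at percentiles 95.3, 94.7, 96.1 and 97.0 of the tested genes.

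**Figure D3:**
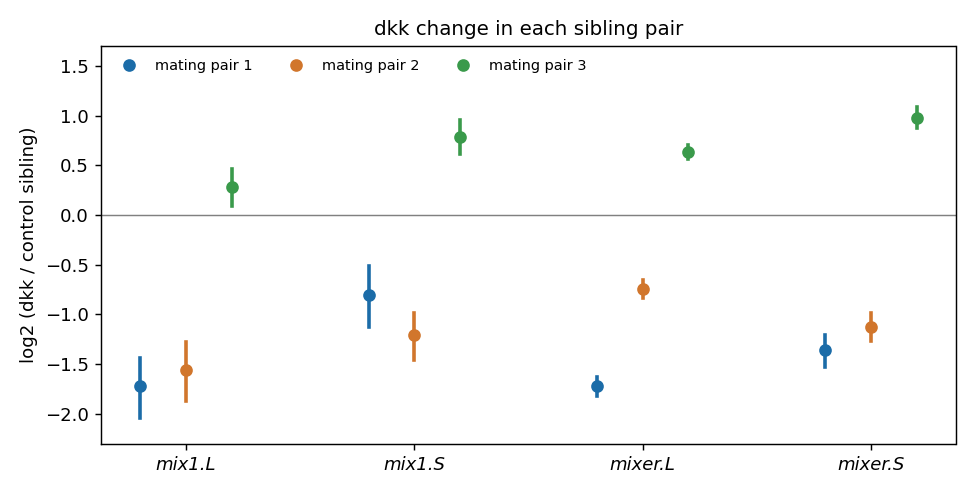
Log2 ratio of the dkk embryo to its control sibling (vertical axis) for each copy and mating pair; vertical bars are 95% counting intervals. All 8 ratios of pairs 1 and 2 lie between -1.72 and -0.74, and the 4 of pair 3 between 0.28 and 0.98.

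The spread among controls was below that of most tested genes for mix1.L, mixer.L and mixer.S, and above it for mix1.S. The SD of log2 CPM over the 3 controls was 0.039 for mix1.L, at percentile 1.08 of all tested genes, 0.22 for mixer.L (percentile 28.9) and 0.27 for mixer.S (percentile 38.0). mix1.S was the most variable copy in controls, with an SD of 0.50 (percentile 69.2) against a median of 0.35 over all tested genes. Over the 3 dkk embryos the SD was 1.08, 1.19, 1.02 and 1.09 for mix1.L, mix1.S, mixer.L and mixer.S, at percentiles 91.3, 93.3, 89.9 and 91.6. A larger SD in dkk embryos than in controls was seen in 4 of 4 members and in 61% of tested genes.

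A difference between clutches was tested as the 2 mating pair terms together in the same fit, which average over the siblings of a mating. Relative to pair 1, pair 3 stood 1.00, 1.60, 0.83 and 1.05 higher on the log2 scale for mix1.L, mix1.S, mixer.L and mixer.S, and pair 2 stood 0.029, 0.82, -0.012 and 0.40 apart. In the same order, edgeR gave adjusted p-values of 0.276, 0.130, 0.532 and 0.514. edgeR called 0 of 4 members (0 at an unadjusted p under 0.05), limma-voom 0 of 4 (1 unadjusted) and DESeq2 1 of 4 (2 unadjusted), which was mix1.S at an adjusted p of 0.00727. Of all 21643 tested genes 22.2% passed the edgeR test, while DESeq2 called 5253 of them and limma-voom 4766. Without pair 3, mix1.S alone of the 4 passed with edgeR (adjusted p = 0.0388), as did 15.2% of genes in that fit. The controls alone did not order the matings in the same way in every row. Control 3 was the lowest of the 3 controls for mix1.L and mixer.S, and for mixer.L it lay between controls 2 and 1 (150 against 147 and 194 CPM). For mix1.S control 3 was above control 1 (22.1 against 13.6 CPM), so there both siblings of pair 3 stood above those of pair 1. For mix1.L, mixer.L and mixer.S control 3 was below control 1, so there only the dkk embryo of pair 3 stood above that of pair 1. Why the pairs differed was not tested.

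The L copy gave 61.9%, 44.5% and 48.6% of mix1 reads in controls 1 to 3 and 46.1%, 38.6% and 40.0% in dkk embryos 1 to 3, so that its share was lower in 3 of 3 pairs, whichever way the gene as a whole had moved. Exact 95% binomial intervals of siblings did not overlap in pair 1 (57.9% to 65.7% against 40.0% to 52.2%) or in pair 3 (45.2% to 52.1% against 37.5% to 42.7%), and overlapped in pair 2 (41.2% to 47.8% against 33.4% to 44.0%). They cover counting error only, not the difference between single embryos. The ranges of the groups overlapped, with dkk embryo 1 at 46.1% above control 2 at 44.5%. How many other homeolog pairs had a lower L share in 3 of 3 pairs was not computed. The mean change was -10.1 ± 5.11 percentage points (SD, n = 3 pairs). An exact two-sided sign-flip permutation test gave p = 0.25, the smallest that it can give with 3 pairs, so this test could not have passed 0.05.

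For mixer the L copy gave 76.3%, 66.4% and 74.6% of reads in controls and 71.5%, 72.0% and 69.8% in dkk embryos. The share was lower in pairs 1 and 3 and higher in pair 2, with a mean change of -1.30 ± 6.04 percentage points (SD, n = 3 pairs; exact two-sided sign-flip permutation p = 1). The share of a copy depends on how many reads of each copy map to a single place, so it is compared here between embryos and does not say which copy is the more expressed.

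**Figure D4:**
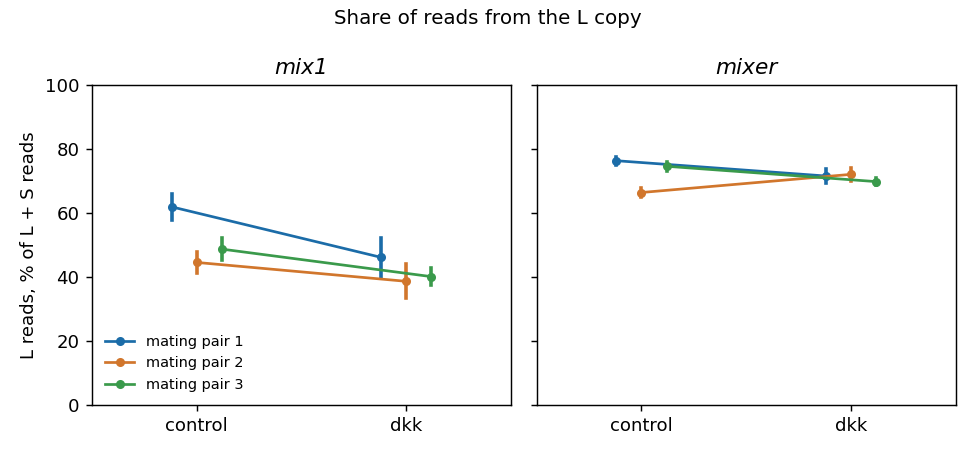
Reads of the L copy as a percentage of L plus S reads (vertical axis, 0 to 100) for mix1 and mixer in each embryo; bars are exact 95% binomial intervals and lines join siblings. The mix1 share is 61.9%, 44.5% and 48.6% in controls and 46.1%, 38.6% and 40.0% in dkk embryos, while the mixer share is lower in pairs 1 and 3 and higher in pair 2.

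The 4 rows moved together across embryos. Pearson's r of log2 CPM between members ran from 0.82 (mix1.S and mixer.L) to 0.95 (mix1.L and mixer.L) over the 6 embryos, which share matings and whose values are spread mainly by the 3 dkk embryos. Reads of mixer, both copies summed, numbered 7.14, 4.59 and 4.67 per mix1 read in controls 1 to 3 and 5.73, 6.51 and 5.25 in dkk embryos. This ratio was lower in the dkk embryo in pair 1 and higher in pairs 2 and 3, and the ranges of the groups overlap.

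Of 9042 genes with a symbol and a mean of at least 5 CPM, those with the pattern most like summed mix1 were dbr1.L, which encodes the enzyme that debranches intron lariats (r = 0.997), the receptor tyrosine phosphatase gene ptprk.L (0.994) and the kinase gene mst4.S (0.993), over 6 embryos. Most like summed mixer were arl10b.L, a gene named for an ADP-ribosylation factor-like GTPase (0.988), the cation channel gene hcn2.L (0.980) and chordc1.S, which encodes a co-chaperone (0.978). dbr1.L had 231, 249 and 249 CPM in controls and 177, 190 and 271 CPM in dkk embryos, and ptprk.L had pair ratios of -0.54, -0.68 and 0.15 on the log2 scale. None of these 6 genes passed the dkk test with edgeR (adjusted p from 0.710 to 0.927). They were picked for following members that did not pass, so this outcome was largely set by the choice. The 6 embryos share matings and dkk treatment with those of the members, and no p is given.

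The medians of the tested upstream regulators lay between -0.11 and 0.21 in all pairs, but many listed regulators had no row. Of 33 listed activator names 16 had a row, and of 25 inhibitor names 12 did. VegT was not among the tested rows. Of 19 tested rows for Nodal-side activators (ligands, receptors, Smad2, FoxH1 and the T-box factor Eomes), 0 fell and 0 rose with edgeR (1 lower and 3 higher at an unadjusted p under 0.05; DESeq2 called 1 higher and limma-voom 0). Their median log2 ratios were 0.095, -0.11 and -0.066 in pairs 1 to 3. The Nodal ligand copy nodal.L had ratios of 1.32, 1.72 and 0.39, and nodal.S of 1.41, 1.09 and 0.83, so both were higher in 3 of 3 pairs without passing (adjusted p = 0.201 and 0.282, edgeR). eomes.L, a T-box activator of mesendoderm genes, had 0.38, 0.42 and 0.57 (adjusted p = 0.218, edgeR). The members' sign pattern was found in 3 of the 19 rows (15.8%, against 18.9% of all tested genes). They were the other copy eomes.S with -0.61, -0.52 and 0.94, foxh1.S with -0.37, -1.06 and 0.37, and the Nodal ligand copy nodal2.L with -0.062, -2.13 and 1.47. The other copy foxh1.L had the opposite signs, with 0.26, 0.59 and -0.15. The related row foxh1.2.L was below 0 in every pair, with -0.32, -1.20 and -0.30.

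Among 21 tested rows for inhibitors, 0 fell and 0 rose with edgeR (1 lower and 5 higher unadjusted; DESeq2 called 1 lower and 3 higher, limma-voom 0). Their median log2 ratios were 0.0046, 0.21 and 0.15 in pairs 1 to 3. The activin antagonist follistatin had ratios of 1.16, 1.17 and 0.73 in fst.S (adjusted p = 0.0728, edgeR) and 1.83, 1.09 and 0.31 in fst.L. The Nodal antagonist lefty.L had 1.80, 2.02 and 0.39 (adjusted p = 0.324, edgeR). Cerberus, a secreted Nodal and Wnt antagonist of the anterior endomesoderm, had ratios of -3.02, -2.21 and -0.29 in cer1.L and -1.54, -1.21 and -0.25 in cer1.S, low in pairs 1 and 2 and near its sibling in pair 3. Neither copy passed (adjusted p = 0.656 and 0.360, edgeR). The members' sign pattern was found in 4 of the 21 rows (19%).

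Some endoderm genes had the members' order of signs. Of 25 tested rows, 4 fell and 1 rose with edgeR and with limma-voom, while DESeq2 called 4 lower and 4 higher. The 4 that fell with edgeR were the copies of pnhd and cdx1, described below as genes of the marginal zone and posterior body. The related cdx2 and cdx4 copies stand in the mesoderm list instead. A total of 9 rows (36%) had a ratio below 0 in pairs 1 and 2 and above 0 in pair 3, against 18.9% of all tested genes. Among the 9 were all 4 rows of sox17, the endoderm Sox factor that Mixer can activate. sox17a.L had ratios of -0.20, -0.088 and 0.46, sox17a.S of -0.19, -0.17 and 0.67, sox17b.1.L of -0.53, -0.23 and 0.25, and sox17b.1.S of -0.51, -0.22 and 0.91. The zinc finger factor gene gata4.S had -1.04, -0.27 and 1.42. None of these 5 passed the dkk test (edgeR adjusted p from 0.887 to 0.998). The other gata4 copy, gata4.L, lacked the sign pattern, with -0.50, 0.061 and 1.43. Some endoderm rows were above 0 in every pair, among them gata6.S with 0.37, 0.86 and 0.43 and sox7.L with 0.30, 0.95 and 0.85. The list's median ratio was -0.18, -0.088 and 0.51 in pairs 1 to 3, and its summed level was 2400 to 3469 CPM in controls and 3037 to 3592 CPM in dkk embryos. None of its 28 rows was at 0 in every embryo, and its part in the members' result was not tested.

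The 5 endoderm-list rows past the threshold did not change sign. pnhd.L, which encodes the secreted factor Pinhead of the marginal zone, had ratios of -1.83, -1.83 and -1.88 (adjusted p = 0.000384), and pnhd.S of -2.53, -2.91 and -1.96 (adjusted p = 0.00214, edgeR). The caudal-type genes cdx1.S and cdx1.L, which pattern the posterior body, had log2 fold changes of -1.33 and -2.22. The anterior endomesoderm homeobox gene hhex.L rose, with ratios of 0.98, 1.00 and 1.53 (adjusted p = 0.0236, edgeR).

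Of 38 tested mesoderm rows 10 fell and 0 rose with edgeR (DESeq2 called 15 lower and limma-voom 14, neither any higher), and 0 had the members' sign pattern. Median ratios were -0.68, -0.82 and -1.59 in pairs 1 to 3, lowest where the members were highest, which rests on 1 dkk embryo. A link between this list and the members was not tested. Brachyury, a gene that Mix1 can repress, had ratios of -1.53, -1.57 and -1.59 in t.L and -1.08, -1.23 and -1.07 in t.S (adjusted p = 0.000492 and 0.00194, edgeR), nearly the same in every pair. cdx2.L, cdx2.S, myf5.L and myf5.S had log2 fold changes of -2.12, -1.53, -2.51 and -1.74. At an unadjusted p under 0.05, 20 of the 38 rows were lower and 1 was higher with edgeR. Rows that did not fall included tbx1.S, with ratios of 1.47, 1.51 and -0.10, and tbx1.L, with 1.02, 0.54 and -0.0033. The list's summed level was 2803 to 3305 CPM in controls and 1216 to 2246 CPM in dkk embryos. In whole embryos fewer cells of a type and less RNA per cell cannot be told apart.

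Of 27 tested organizer rows 0 fell and 5 rose with edgeR (unadjusted, 2 lower and 16 higher). With DESeq2 2 were lower and 12 higher, and with limma-voom 0 lower and 5 higher. The 5 with edgeR were dkk1.S, whose reads may be those of the injected mRNA, hhex.L, lhx1.S, fzd8.S and fzd8.L. Of these, hhex.L is in the endoderm list too and is the same row that rose there. Other organizer rows were below 0 in every pair. They were dkk1.L, with -2.38, -2.97 and -0.94, and cer1.L and cer1.S, the same rows as in the inhibitor list. The ratios were -3.02, -2.21 and -0.29 in cer1.L and -1.54, -1.21 and -0.25 in cer1.S. The LIM homeobox copy lhx1.S had ratios of 0.79, 0.69 and 0.78. Of the 27, frzb.S alone (3.7%) had the members' sign pattern, at -0.76, -0.44 and 0.69. The organizer homeobox gene goosecoid was highest in pair 3 in both copies, with ratios of 0.42, -0.58 and 2.58 in gsc.L and 0.48, 0.92 and 2.09 in gsc.S (adjusted p = 0.891 and 0.297, edgeR). Of 34 ectoderm rows 1 fell, tp63.S, and 1 rose, krt18.S, with edgeR (DESeq2 called 3 lower and 2 higher), and the median ratios of the list were 0.14, 0.51 and -0.090. Its summed level was 6964 to 9749 CPM in controls and 6825 to 15089 CPM in dkk embryos.

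**Figure D5:**
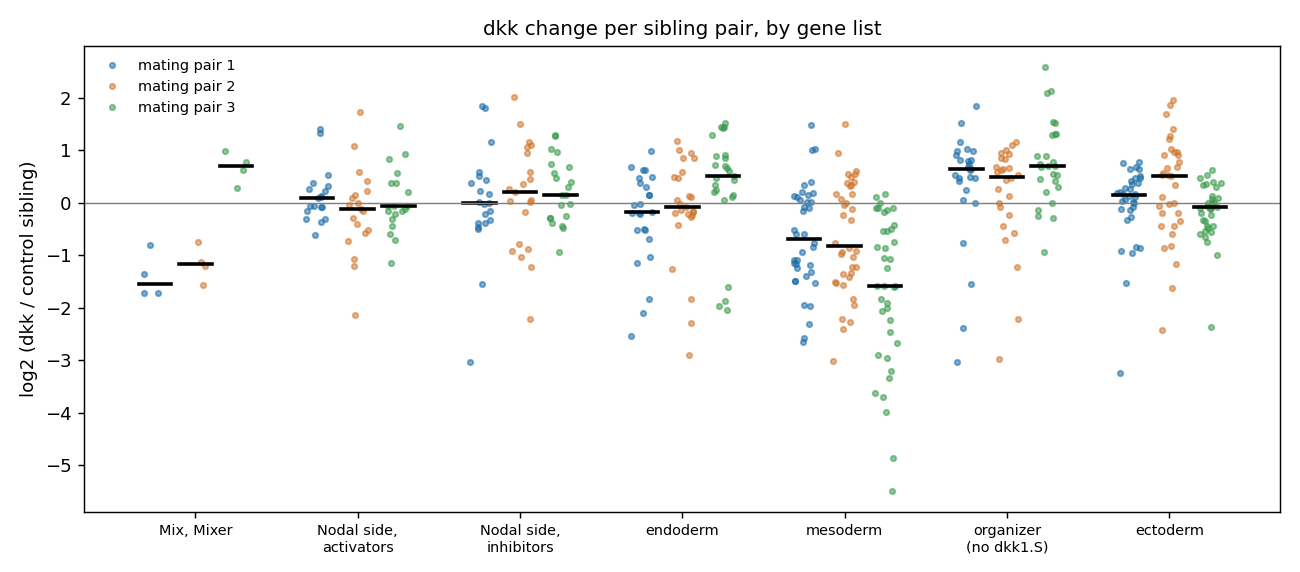
Log2 ratio of the dkk embryo to its control sibling (vertical axis) for the tested rows of each gene list, by mating pair; points are gene rows, horizontal black bars are medians, and dkk1.S is left out of the organizer list. The Mix and Mixer points change side between pairs 1 and 2 and pair 3, the endoderm medians do so by less (-0.18 and -0.088 against 0.51), and the mesoderm medians stay below 0 (-0.68, -0.82 and -1.59).

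In RefSeq's gene order mix1 and mixer are next to each other on both subgenomes, with bix1 genes on the far side of mix1 and lin9 on the far side of mixer. acbd3 follows the bix1 genes. lin9.L, part of a cell cycle gene regulatory complex, had ratios of -0.31, -0.17 and 0.24, and lin9.S of 0.46, 0.58 and 0.21. acbd3.L, which encodes a Golgi protein, had -0.0090, 0.20 and 0.15, and acbd3.S had -0.033, 0.24 and -0.11. None of these 4 rows passed the dkk test with edgeR. In the clutch test lin9.L alone of them passed (adjusted p = 0.0425, edgeR), as did 22.2% of all tested genes.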

How the data were processed

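Single whole embryos were profiled by sequencing of polyadenylated RNA (Illumina TruSeq RNA kit, Trizol extraction, per the labels' protocols). The authors deposited raw read counts per gene, with no normalization. Per the submitters' processing notes the tools were TopHat2, SAMtools and HTSeq. Not given in the sources used here are their versions and settings, strand handling, the genome build and the annotation. HTSeq's summary rows, which name no gene, stayed out of library sizes and tests: they held 25.6% to 28.2% of counted reads, of which reads with several alignments made up 15.9% to 17.6% of the total. Such reads were not counted, so each L or S level is uncertain to the extent that the copies are alike. The authors' deposited table of 97 genes holds, per the file headers, a baseMean (a normalized signal), a log2 fold change with its error, a test score and p-values; it was read for its gene names.

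The test used edgeR 4.0.16 under R 4.3.3: TMM scaling, filterByExpr (minimum count 10, total 15), robust quasi-likelihood F test, mating pair as a block, Benjamini-Hochberg adjustment over 21643 genes, threshold 0.05. Standard errors are those implied by F. Pair ratios used a prior count of 2. The design text gives the pairing by mating; deviations from group means correlated at 0.674, 0.552 and 0.622 within pairs 1 to 3. Each group had 1 embryo per mating, so a p-value reflects how the dkk effect varied over 3 sibling pairs. The spread used for each gene is in part borrowed from other genes. Depth was 17460820 to 19880568 reads in genes.

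The gene family and the gene lists were chosen with earlier results of these data known. Within the family, the members are all rows that match the name rule. Genes named were all members, the list rows past the threshold (up to 6) or else the 3 with the smallest p, and the 3 genes most like each summed member gene. Rows of sox17, sox7, gata4, gata6, eomes.S, foxh1, nodal2, cer1, dkk1.L, frzb, gsc, tbx1, sp5, axin2 and the neighbours were named after their values were seen. List entries with no row under that name were not used here. RefSeq names and gene order came from assembly Xenopus_laevis_v10.1, whose coordinates are not used; 12007 of 45099 rows matched a symbol, the 4 members among them. The fit was tested on simulated data, where it recovered most large changes but made more false calls than the nominal share, so single calls near the threshold are less certain than their adjusted p says. Alternatives used DESeq2 1.42.0, limma 3.58.1, other scaling, filters, summed copies, no block and each pair left out.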

Additional observations from a re-analysis of the deposited data

Results flagged for a closer look

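The dkk ratio of pair 3 ran against that of the other matings in every Mix and Mixer row. On the log2 scale it was 0.28 for mix1.L, 0.78 for mix1.S, 0.63 for mixer.L and 0.98 for mixer.S in pair 3, and below 0 in pairs 1 and 2 for all 4. The difference between matings was not tested, since each mating has 1 embryo per group. The pair 3 dkk embryo also had the most dkk1.S reads (725 CPM) and the lowest mesoderm list median ratio (-1.59), while sp5.L (-3.88 against -6.81 and -5.85) and dkk1.L (-0.94 against -2.38 and -2.97) were least reduced there. The other sp5 copy, sp5.S, was least reduced in pair 2 (-5.47), with -6.43 in pair 1 and -5.73 in pair 3. The part of these differences in the result was not tested.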

How the results depend on the processing

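The dkk log2 fold changes of the 4 members kept their direction and stayed outside the threshold in 36 of 40 values from other settings. Without a mating pair mix1.S ranged from -1.01 to 0.014, positive without pair 2, mix1.L from -1.65 to -0.63, mixer.L from -1.22 to -0.056 and mixer.S from -1.24 to -0.072, the last 3 nearest 0 without pair 1. mix1.L, mix1.S and mixer.S passed without pair 3. Leaving out a mating pair gave 0 to 3 members called for dkk, against 0 in the paired fit of all embryos, and 0 to 1 for clutch. Without the mating pair as a block, 14 genes were called for dkk against 124, and 0 members; DESeq2 called 392, the fit with no filter 343, and leaving out a pair gave 58 to 659. For clutch, all-gene calls ranged from 3237 to 4642 without a pair, against 4808, and DESeq2 called 1 member. Another prior count or scaling moved no pair ratio by more than its SD over pairs, a wide bar at 1.05 to 1.29. The pair 2 ratio of mix1.L, for example, was -1.556, against -1.566 with a prior count of 0.5 and -1.569 with DESeq2 size factors. Scaling turned no member's direction. The causes were not tested. The smallest count of a member was 123 reads.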
